A study of Mus musculus with 6 samples.

Results

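The genes described here are 47 genes of endothelial identity and vessel zonation, that is, endothelial cell (EC) transcription factors, surface and secreted proteins, and genes of arterial, venous and tip ECs. They were taken by symbol from a given list, and 47 of 47 were matched to 1 Ensembl gene each among the 33460 genes of the files. All 47 passed the filter for testing (FPKM of 1 or more in 3 or more of 6 libraries), *Gkn3* through the fragments alone, and *Bmx*, *Esm1* and *Plvap* with only 1 or 2 mural cell libraries at that level. FPKM is the number of sequenced cDNA fragments scaled to transcript length and library depth, and microvascular fragments are called fragments in short. RNA-seq was performed on brains of *NG2-DsRed/Pdgfrb-eGFP* mice at postnatal day 6, which carry both reporters in every sample of either group. In 3 samples, mural cells positive for both reporters were sorted by FACS, and in 3 samples microvascular fragments (ECs with their attached mural cells) were isolated with magnetic beads coated with anti-CD31. Per the methods, 3 brains were each divided in the sagittal plane, with 1 side for each preparation, and the labels do not say which libraries share a brain. The reporters are driven by the promoters of *Pdgfrb* and *Cspg4* (NG2) and label pericytes (PC) more evenly than smooth muscle cells, so the latter may be represented in part. The beads bind the product of *Pecam1*, which is 1 of the 47 genes.

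ECs line all blood vessels and are specified by ETS factors (ERG, FLI1, ETS1), by SOX factors of the F group (SOX7, SOX17, SOX18) and by the TAL1/LMO2 complex. Along the vascular tree the cells differ. Arterial ECs express *Sox17*, *Bmx* and, in brain, *Gkn3*, venous ECs express *Nr2f2* (COUP-TFII) and much *Vwf*, and tip cells of growing sprouts express *Apln* and *Esm1*. Mural cells lie outside the endothelium in a shared basement membrane. The comparison asks at what level EC genes were measured in the sorted mural cells relative to fragments, and whether all of them stood in the same ratio.

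The sequences before the annotated start are shown for 2 genes near the common ratio (*Pecam1*, *Gpr116*) and for 3 genes that departed from it (*Ly6a* and *Bmx* below, *Nr2f2* above), so that the genes of both kinds can be compared in their upstream letters. Each is 200 bases of NCBIM37 on the strand of the gene, read from the genome and ending 1 base before the gene's first annotated base. Capitals mark 3 short motifs, read on both strands. The core bound by many ETS factors was searched as GGAAGT. The motif searched for the SOX family of high mobility group factors was AACAAT. For the zinc finger factors of the GATA family, which work beside the TAL1/LMO2 complex, the letters were AGATAA, and none of these motifs is contained in another on either strand.
Pecam1 (chr11:106611943-106612142, minus strand): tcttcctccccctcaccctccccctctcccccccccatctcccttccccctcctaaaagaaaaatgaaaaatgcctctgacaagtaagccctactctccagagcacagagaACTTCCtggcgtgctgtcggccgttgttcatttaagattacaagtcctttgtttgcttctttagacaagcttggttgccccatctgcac
Gpr116 (chr17:43526215-43526414, plus strand): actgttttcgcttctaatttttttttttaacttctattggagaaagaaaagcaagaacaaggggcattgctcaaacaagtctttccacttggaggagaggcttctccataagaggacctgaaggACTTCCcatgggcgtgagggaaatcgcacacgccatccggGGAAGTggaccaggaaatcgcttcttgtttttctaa
Ly6a (chr15:74828065-74828264, minus strand): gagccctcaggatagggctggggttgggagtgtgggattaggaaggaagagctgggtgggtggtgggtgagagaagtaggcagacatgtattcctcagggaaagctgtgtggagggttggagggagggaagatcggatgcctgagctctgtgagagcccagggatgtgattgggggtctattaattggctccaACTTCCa
Bmx (chrX:160696126-160696325, minus strand): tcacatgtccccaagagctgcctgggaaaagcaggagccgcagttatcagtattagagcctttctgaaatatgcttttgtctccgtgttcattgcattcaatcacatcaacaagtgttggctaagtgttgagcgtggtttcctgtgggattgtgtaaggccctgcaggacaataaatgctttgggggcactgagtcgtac
Nr2f2 (chr7:77511622-77511821, minus strand): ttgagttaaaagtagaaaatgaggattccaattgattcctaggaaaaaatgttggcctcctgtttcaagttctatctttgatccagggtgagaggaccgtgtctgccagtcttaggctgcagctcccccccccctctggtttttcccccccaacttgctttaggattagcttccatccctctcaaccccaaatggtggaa

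In these windows *Pecam1* held 1 ETS string and *Gpr116* held 2, with no SOX or GATA string in either. *Ly6a* held 1 ETS string, 7 bases before the start, and *Bmx* and *Nr2f2* held none of the 3. In the 250 bases before the start, 10 of the 47 genes had the ETS letters (21.3%), against 19.9% of 20930 protein-coding genes. The SOX letters were found in 6 of 47 (12.8%, against 8.49%) and the GATA letters in 8 of 47 (17.0%, against 8.85%). A match is a string of letters and not a binding site, and its absence says nothing about the factor.

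The libraries of the 2 groups were not equally deep. Where a gene has 1 transcript, low FPKM came in steps of 1 cDNA fragment (98.4 to 98.9% of low values lay within 0.1 of a whole number), which gave approximately 5.43 to 5.95 M cDNA fragments on protein-coding genes in the microvascular libraries and 1.04 to 2.37 M in the mural cell libraries. Of the marker lists, 15 of 15 mural genes passed a ratio of 2 (median 9.21), as did 4 of 5 tested fibroblast genes, with a summed FPKM of 312 to 423 against 42.1 to 49.9 in fragments. All 12 microglia genes were more than 2-fold lower (median ratio 0.0862), with a summed FPKM of 206 to 251 against 2255 to 2840. Of the 8 astrocyte, 6 oligodendrocyte progenitor and 3 tested erythroid genes, 0 were lower and 1 was higher (limma), and of 8 neuron genes 1 was lower. The higher gene was *Pdgfra* of the progenitor list (ratio 1.59, adjusted p = 0.048 from limma), which is also 1 of the 5 tested fibroblast genes. At an unadjusted p under 0.05, 1 astrocyte and 3 neuron genes were lower, 1 oligodendrocyte progenitor gene was higher, and the erythroid count stayed at 0. The astrocyte sum was 809 in mural cell library 3 and as low as 224 in another.

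EC genes were abundant in the sorted cells. *Pecam1* (ENSMUSG00000020717, chromosome 11, 106515531 to 106611942), the gene of the adhesion molecule CD31, was measured at 272, 221 and 208 FPKM in the 3 sorted libraries and at 378, 371 and 365 FPKM in the 3 fragment libraries. The groups did not overlap, and the sorted cells were lower by less than 2-fold. The ratio of the means was 0.629, and the log2 fold change was -0.68 with an SE (standard error) of 0.13 (limma, adjusted p = 0.0096). In bulk samples, fewer ECs and less RNA per EC cannot be told apart, nor can the cells that the RNA came from. The cause of the difference was not tested. Ratios are of mean FPKM. Log2 fold changes were taken after 1 was added to each FPKM, so that those of weakly expressed genes are too small.

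Over all 47 genes the median ratio was 0.651, against 0.943 over the 14801 genes tested. The ratio was under 1 for 37 genes and above 1 for 10. At an adjusted p under 0.05, 22 of 47 genes (46.8%) were lower in the sorted cells, against a background of 13.0% of all tested genes, and 9 of these had a ratio under 0.5 (19.1%, background 10.1%). Without *Gkn3*, which entered the test only through the group where it is high, 21 of 46 were lower and 8 had a ratio under 0.5. *Bmx* is still in both counts, although it also needed the fragments to pass the filter. Only mural cell library 3 (2.27 FPKM) reached the filter level for *Bmx*. Higher levels were called for 4 genes (8.51%), near the background of 9.34%, and 1 of them passed a ratio of 2 (2.13%, background 6.43%). For 32 genes each mural cell library was below each fragment library (68.1%, background 24.5%), and for 4 each was above (8.51%, background 16.5%). The number called lower was 9 without fragment library 1, 8 without fragment library 2 and 17 without fragment library 3. Over all tested genes the number also fell in these fits, from 1927 to 1136, 1236 and 1121. Without mural cell library 1, 15 genes had a called ratio under 0.5. The genes called lower in every one of the 6 fits that left out a library, besides *Gkn3*, were *Bmx*, *Ly6a*, *Pecam1*, *She*, *Sox17* and *Sox7*.

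**Figure D1:**
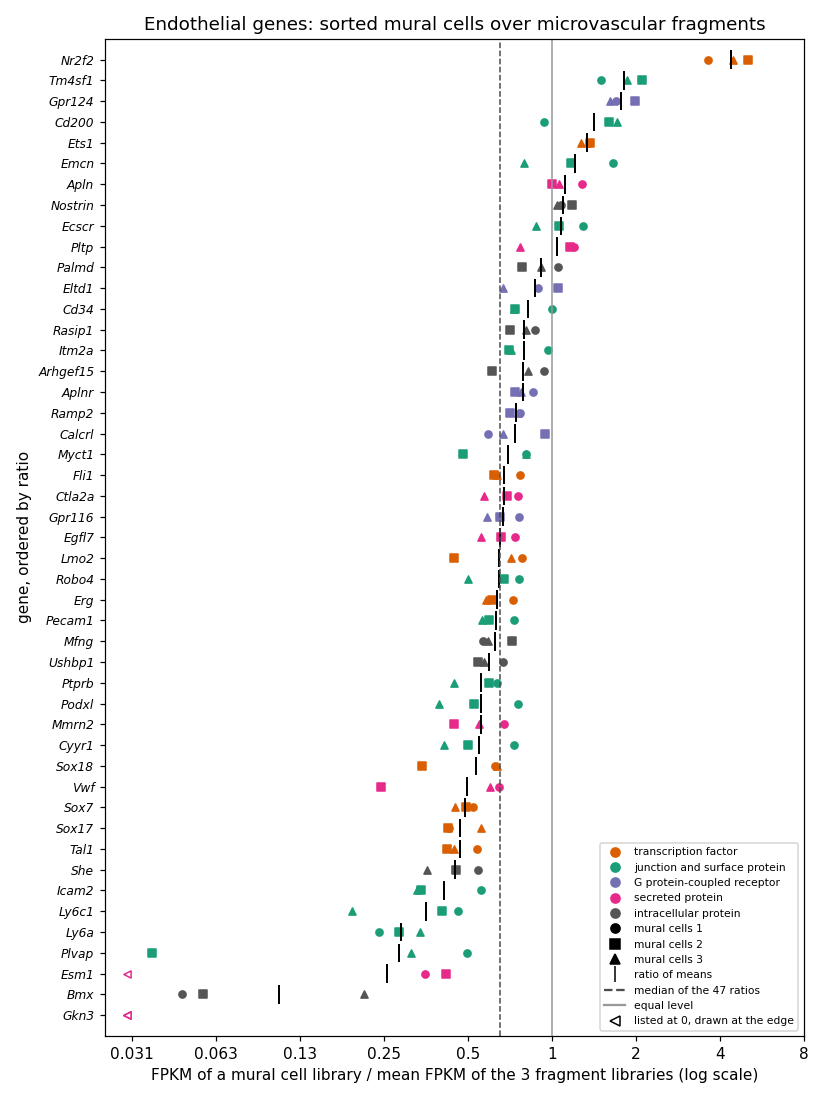
FPKM of each mural cell library over the mean of the 3 fragment libraries (x axis, log scale) for the 47 genes (y axis, ordered by the ratio of means), with colors for the role of the gene, shapes for the library, a bar for the ratio of means, open triangles at the edge for libraries listed at 0, a solid line at an equal level and a dashed line at the median ratio of 0.651. Most genes lie between *She* at 0.451 and *Emcn* at 1.21, whereas *Gkn3*, *Bmx*, *Esm1*, *Plvap* and *Ly6a* lie at 0 to 0.287 and *Nr2f2* stands alone at 4.38.

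The level of EC genes differed between the sorted libraries. Divided by the mean of the fragments, the median over the 47 genes was 0.757, 0.619 and 0.602 in mural cell libraries 1, 2 and 3, and between 0.901 and 1.05 in the fragment libraries. Mural cell library 1, the deepest of the 3, had the highest value of the sorted libraries for 32 of the 47 genes. Among all 14801 tested genes it did so for 5087. A link to depth was not tested. The mural markers had a median of 7.35 in library 1, against 9.95 and 8.66 in libraries 2 and 3. They did not share an order, since library 1 had the highest value for 4 of them, library 2 for 8 and library 3 for 3. *Pdgfrb* was at 461, 474 and 401 FPKM in mural cell libraries 1, 2 and 3, and *Acta2* at 381, 838 and 959. Whether the levels of EC genes and of mural genes depend on each other was not tested. The median coefficient of variation was 18.5% between mural cell libraries and 11.7% between fragment libraries. Across genes, the ratio had a Spearman correlation of 0.28 with the level in fragments (n = 47 genes, which share libraries and are no replicates).

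**Figure D2:**
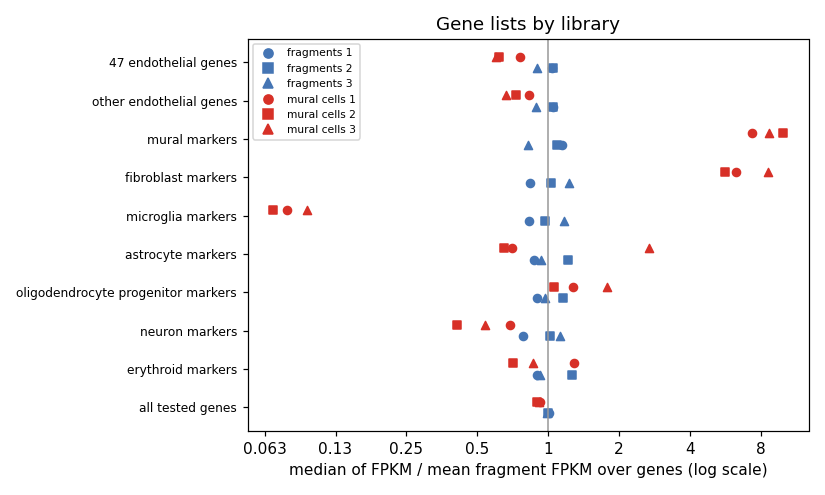
Median over the genes of each list of the FPKM divided by the mean of the 3 fragment libraries (x axis, log scale), for each fragment library (blue) and each mural cell library (red). The 47 endothelial genes sit at 0.602 to 0.757 in the mural cell libraries, between the microglia markers (0.0679 to 0.0946) and the mural markers (7.35 to 9.95).

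Among the 9 transcription factor genes, 5 were lower (55.6%, background 13.0%) and 2 were higher (22.2%, background 9.34%) in the sorted cells. Their median ratio was 0.638. *Fli1*, an ETS factor of early EC and blood development, had an FPKM of 58.7, 47.1 and 48.4 in mural cells and of 71.1, 79.7 and 77.5 in fragments (log2 fold change -0.56, SE 0.13, adjusted p = 0.019 from limma). Its ratio of 0.676 rested on 516 cDNA fragments in mural cells and 2973 in microvascular libraries. *Erg*, an ETS factor that maintains EC identity, and *Lmo2*, a bridging factor of the TAL1 complex, had similar ratios of 0.638 and 0.647 but did not pass the test (adjusted p = 0.057 and 0.060). The 3 SOX factors of the F group were called lower. *Sox7* had an FPKM of 27.7, 26.0 and 23.8 in mural cells against 54.6, 54.0 and 50.1 in fragments, a ratio of 0.488 with little spread (log2 fold change -1.01, SE 0.12, adjusted p = 0.0013). *Sox18* had a ratio of 0.536 (adjusted p = 0.042), with 21.7 in mural cell library 2 against 39.8 and 40.2 in the other two. *Tal1*, which partners with LMO2, had an FPKM of 11.5, 8.97 and 9.49 against 26.5, 17.8 and 19.8. Its groups did not overlap (ratio 0.468, adjusted p = 0.012), but the call was lost without fragment library 1 (adjusted p = 0.0559, range over all alternatives 0.0096 to 0.0559).

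*Ets1* went the other way. This ETS factor had an FPKM of 177, 179 and 166 in mural cells and of 138, 131 and 123 in fragments, with no overlap between the groups. The ratio was 1.33 (log2 fold change 0.41, SE 0.10, adjusted p = 0.026 from limma), and the adjusted p lay above 0.05 in 5 of the 6 fits that left out a library. The highest ratio of all 47 genes belonged to *Nr2f2* (ENSMUSG00000030551, chromosome 7, 77496832 to 77511621), the orphan nuclear receptor that specifies veins. Its FPKM was 129, 180 and 159 in the sorted libraries and 33.2, 38.6 and 35.3 in the fragment libraries. Every sorted library was thus more than 3 times above every fragment library, with a ratio of 4.38 (log2 fold change 2.09, SE 0.15, adjusted p = 1.7e-04). The mural markers moved in the same direction (15 of 15 enriched), and so did the fibroblast markers *Col1a1* (ratio 12.9) and *Dcn* (ratio 7.33). Their part in the *Nr2f2* value was not tested.

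The 16 junction and surface protein genes had a median ratio of 0.637, and 8 were lower and 1 was higher. Near the common ratio lay *Robo4* (0.645, adjusted p = 0.043), a receptor that stabilizes vessels, *Ptprb* (0.560, adjusted p = 0.013), the phosphatase VE-PTP of EC junctions, and *Podxl* (0.558, adjusted p = 0.027), a sialomucin of the luminal surface. *Cyyr1* also fell (0.547, adjusted p = 0.024). *Itm2a*, with a ratio of 0.793, *Cd34*, with 0.822, and *Myct1*, with 0.699, did not pass the test (adjusted p = 0.19, 0.24 and 0.22). *Ecscr*, which encodes an EC receptor for chemotaxis, had an FPKM of 107, 87.7 and 72.3 in mural cells against 88.6, 85.4 and 73.9. The groups overlapped, with a ratio of 1.08 (adjusted p = 0.73). The sialomucin gene *Emcn* had an FPKM of 73.3, 51.8 and 35.0 in mural cells and of 40.2 to 48.3 in fragments. Its mural cell libraries lay on both sides of the fragments (ratio 1.21, adjusted p = 0.60).

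The *Ly6* genes and *Icam2* were the 3 surface genes called lower at a ratio under 0.5. *Ly6a* (Sca-1; ENSMUSG00000075602, chromosome 15, 74825308 to 74828064) had an FPKM of 7.34, 8.67 and 10.3 in mural cells against 31.5, 33.7 and 26.3 in fragments. The mural cell values rested on 8, 4 and 5 cDNA fragments and those of the microvascular libraries on 90, 89 and 76. The groups were far apart, with a ratio of 0.287 (log2 fold change -1.69, SE 0.19, adjusted p = 8.6e-04 from limma). *Ly6c1* (chromosome 15, 74875447 to 74879260), its neighbor in the same gene cluster, had an FPKM of 23.9, 21.0 and 9.93 against 60.6, 53.5 and 41.5. Its ratio was 0.353 (log2 fold change -1.52, SE 0.32, adjusted p = 0.014), on 27, 10 and 5 cDNA fragments in mural cells. The *Ly6* genes are similar in sequence, so that reads may have been split between copies. *Icam2*, a ligand of leukocyte integrins, had an FPKM of 38.1, 23.3 and 22.5 against 74.4, 79.1 and 51.5 (ratio 0.409, log2 fold change -1.28, SE 0.25, adjusted p = 0.010). None of the 3 genes overlapped between groups, and the calls of *Ly6c1* and *Icam2* were lost without fragment library 1 or 2 (adjusted p = 0.051 to 0.0646, range over all alternatives 0.00499 to 0.0646 for *Ly6c1* and 0.0053 to 0.0531 for *Icam2*).

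*Tm4sf1* (chromosome 3, 57089533 to 57105841), a tetraspanin-like protein of EC filopodia, had an FPKM of 54.2, 75.5 and 66.8 in mural cells and of 31.2, 44.8 and 32.0 in fragments. It was the surface gene with a called increase, and its groups did not overlap (ratio 1.82, log2 fold change 0.85, SE 0.19, adjusted p = 0.017 from limma). Without fragment library 1 or 3 it did not pass (adjusted p = 0.073 and 0.0715, range over all alternatives 0.0112 to 0.073). *Cd200*, an immune inhibitory ligand that neurons also carry, had an FPKM of 36.5, 63.0 and 67.2 against 37.4, 46.7 and 33.3. Only mural cell library 1 lay within the fragments (ratio 1.42, adjusted p = 0.24).

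Among the 6 genes of G protein-coupled receptors and their partner, 2 were lower (33.3%, background 13.0%) and 1 was higher (16.7%, background 9.34%). *Ramp2*, which turns the product of *Calcrl* into an adrenomedullin receptor, had an FPKM of 139, 128 and 137 in mural cells and of 188, 181 and 173 in fragments. The ratio was 0.747 (log2 fold change -0.42, SE 0.10, adjusted p = 0.022 from limma). *Calcrl* itself had a ratio of 0.736 with overlapping groups (adjusted p = 0.14). Of the adhesion receptors, *Gpr116* was lower (ratio 0.666, adjusted p = 0.021) and *Eltd1* was not called (ratio 0.871, adjusted p = 0.48). *Gpr124* (chromosome 8, 28196313 to 28233890), a Wnt7 coreceptor required for brain angiogenesis, was higher. Its FPKM was 90.2, 106 and 86.0 in mural cells against 55.4, 54.6 and 49.9 in fragments, without overlap (ratio 1.76, log2 fold change 0.80, SE 0.12, adjusted p = 0.0035). This call was kept in all 6 fits that left out a library.

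Of the 8 secreted protein genes, 4 were lower, *Gkn3* among them, and 0 were higher, also at an unadjusted p under 0.05 (limma). *Egfl7*, an EC matrix protein, stood at the median itself, with a ratio of 0.651 (adjusted p = 0.023 from limma), and *Mmrn2*, a multimerin of EC matrix, was at 0.557 (adjusted p = 0.012). The protease inhibitor gene *Ctla2a* had a ratio of 0.674 (adjusted p = 0.039), where reads may be shared with the related *Ctla2b*. *Pltp*, a lipid transfer protein, was as high in mural cells as in fragments, with 249, 241 and 160 against 241, 210 and 172 (ratio 1.04, adjusted p = 0.90). Of the 8 intracellular protein genes, 3 were lower (37.5%, background 13.0%). *She*, an adaptor with an SH2 domain, had an FPKM of 27.0, 22.6 and 17.7 against 54.2, 52.1 and 43.1 (ratio 0.451, log2 fold change -1.13, SE 0.18, adjusted p = 0.0047). *Mfng*, a glycosyltransferase of Notch receptors, was lower with a ratio of 0.625 (adjusted p = 0.012). *Rasip1* (0.795), *Arhgef15* (0.790) and *Palmd* (0.914) were not called (adjusted p = 0.11, 0.21 and 0.84), nor was *Ushbp1* (0.594, adjusted p = 0.052). *Nostrin*, a regulator of endothelial nitric oxide synthase, had an FPKM of 52.0, 56.8 and 50.1 against 42.7, 59.8 and 42.1, with overlap (ratio 1.10, adjusted p = 0.56).

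**Figure D3:**
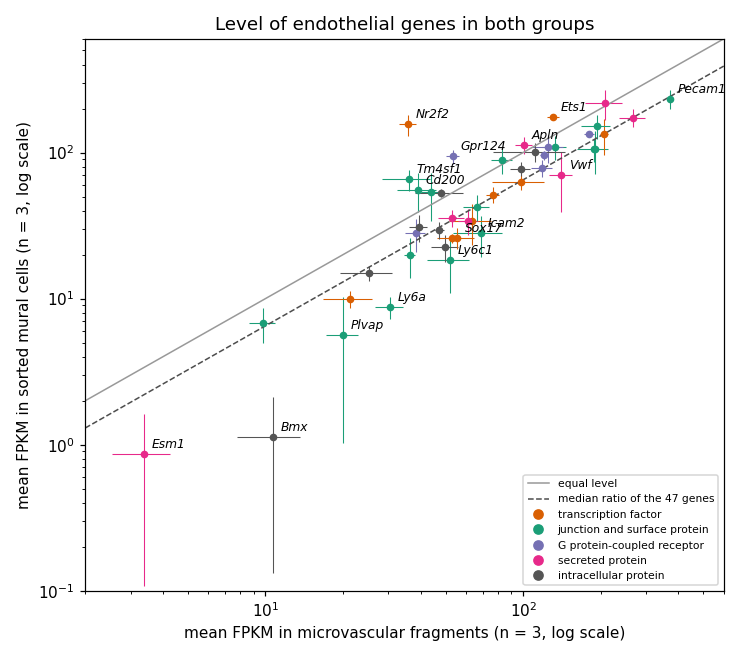
Mean FPKM in mural cells (y axis) against mean FPKM in fragments (x axis, both log scale) for 46 of the 47 genes (*Gkn3*, listed at 0 in mural cells, cannot be drawn), with bars for the SD (n = 3). Levels in fragments range from 3.39 to 371 FPKM, and most genes at 20 FPKM or more lie near the dashed line of the median ratio. The 43 genes at 20 FPKM or more had a median ratio of 0.666, and the 4 genes under it, *Gkn3* included, had 0.181. *Nr2f2*, *Tm4sf1*, *Gpr124* and *Ets1* lie above the line of equal level, and *Bmx*, *Plvap* and *Ly6a* far under the dashed line.

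Of the zonation genes, *Gkn3* and *Bmx* of arterial ECs had the lowest ratios, while the third arterial gene, *Sox17*, lay above *Esm1* and *Plvap*. *Bmx* and *Sox17* were called lower, against 13.0% of all genes, and *Gkn3* is described without a test. *Bmx* needed the fragments, where it is high, to pass the filter, so its test gives no independent support. *Bmx* (ENSMUSG00000031377, chromosome X, 160630774 to 160696125), a kinase of arterial ECs, had an FPKM of 0.505, 0.602 and 2.27 in mural cells and of 10.1, 13.9 and 8.12 in fragments. The highest mural cell library was thus under the lowest fragment library, and the ratio was 0.105 (log2 fold change -2.53, SE 0.38, adjusted p = 0.0034 from limma). *Gkn3* (ENSMUSG00000030048, chromosome 6, 87333262 to 87338929), a marker of arterial ECs in brain, was listed at 0 in all mural cell libraries and had an FPKM of 5.72, 10.9 and 7.65 in fragments, on 17, 30 and 23 cDNA fragments. With 0 cDNA fragments over the 3 mural cell libraries, a level of up to 1.41 FPKM (3 cDNA fragments over the group) could have been missed, so that *Gkn3* was at least 5.72-fold lower. *Sox17*, a factor needed for arterial fate, had an FPKM of 23.7, 23.5 and 30.9 against 50.6, 66.0 and 50.1. It was lower by less than the other two (ratio 0.469, log2 fold change -1.06, SE 0.17, adjusted p = 0.0045), and the calls of *Bmx* and *Sox17* were kept in each fit that left out a library.

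Venous genes did not move together. *Nr2f2* rose 4.38-fold, as described above. The study lists *Nr2f2* in its catalogue of brain mural cell-enriched genes, to which these data contributed. *Vwf*, the clotting factor carrier of larger vessels, had an FPKM of 91.3, 34.3 and 84.6 in mural cells and of 149, 124 and 149 in fragments. The groups did not overlap, but mural cell library 2 was far under the others (ratio 0.498, adjusted p = 0.060 from limma). Without mural cell library 2 the change passed the test with a smaller log2 fold change of -0.67 (adjusted p = 0.0182), and without library 1 it did so at -1.36 (adjusted p = 0.042, range over all alternatives 0.0182 to 0.175). *Aplnr*, the apelin receptor of veins and the capillary plexus, had an FPKM of 103, 89.5 and 93.6 against 126, 119 and 119, a ratio of 0.789 (adjusted p = 0.058).

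Of the tip cell genes, *Apln*, the ligand of this receptor, was abundant in both groups. Its FPKM was 130, 101 and 107 in the sorted libraries and 109, 99.2 and 94.0 in the fragment libraries, with overlap (ratio 1.12, adjusted p = 0.45 from limma), on 1148 cDNA fragments in mural cells and 3991 in microvascular libraries. *Esm1* was rare, with 1.19, 1.42 and 0 in mural cells against 3.11, 4.36 and 2.72. These values rested on 6 cDNA fragments over the mural cell libraries and 86 over the microvascular libraries (ratio 0.256, adjusted p = 0.056), so that the depth limits this comparison. *Plvap*, the diaphragm protein of fenestrated and immature vessels, had an FPKM of 9.95, 0.740 and 6.29 in mural cells and of 23.4, 18.7 and 18.1 in fragments. Its mural cell libraries held 32, 1 and 9 cDNA fragments and differed more from each other than those of most genes (ratio 0.282, adjusted p = 0.058). Without mural cell library 2 the log2 fold change was -1.23 instead of -2.02 and passed the test (adjusted p = 0.016), as it did without library 1 (-2.56, adjusted p = 0.0273, range over all alternatives 0.016 to 0.179).

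**Figure D4:**
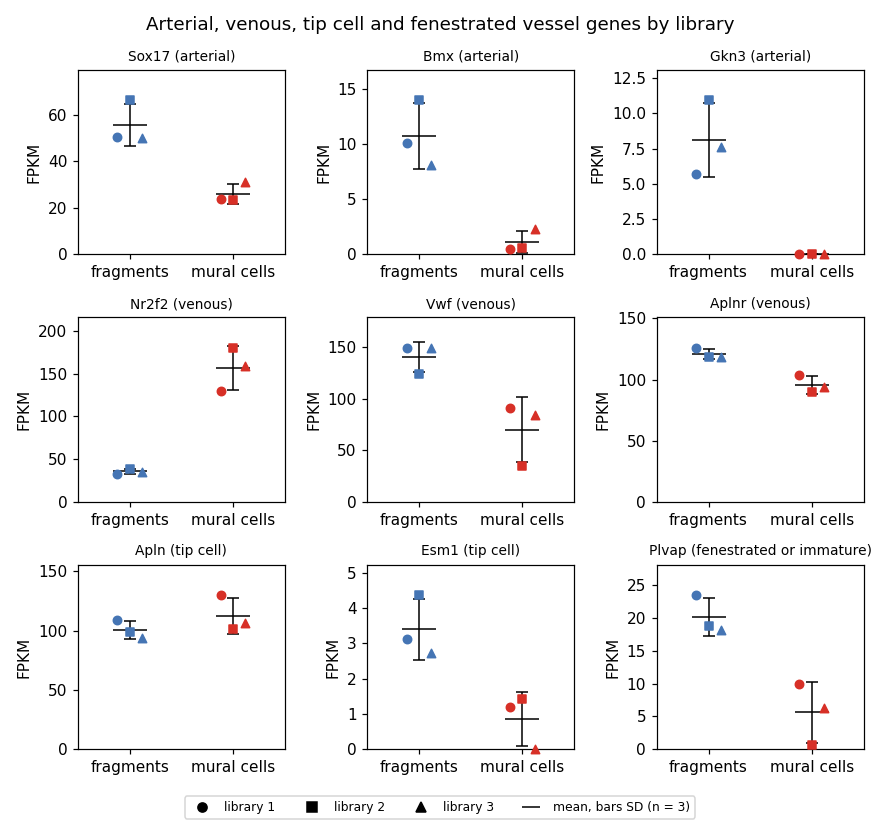
FPKM (y axis, linear) of 9 zonation genes in the 3 fragment libraries (blue) and the 3 mural cell libraries (red), with the mean and SD (n = 3). The arterial genes *Sox17*, *Bmx* and *Gkn3* are lower in all mural cell libraries, *Nr2f2* is higher, *Apln* overlaps, and *Vwf* and *Plvap* spread widely between mural cell libraries.

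Which genes depart from the common ratio was tested by fitting each gene relative to the 47 genes in the same library. A departure was called at an adjusted p under 0.05 (limma) and a ratio more than 1.5 times above or below the median ratio of 0.651. With the median level of the 47 genes as the reference, 4 genes were above (8.51%, background 11.0%) and 5 below (10.6%, background 7.59%). The 4 above were *Nr2f2* (6.73 times the median ratio, adjusted p = 6.6e-05), *Tm4sf1* (2.80 times, adjusted p = 0.0057), *Gpr124* (2.71 times, adjusted p = 0.0022) and *Ets1* (2.05 times, adjusted p = 0.018). The 5 below were *Gkn3*, with a ratio of at most 0.175 and no independent test, since it passed the filter through the fragments alone, *Bmx* (0.162 times the median ratio, adjusted p = 0.0031), *Ly6a* (0.441 times, adjusted p = 0.0013), *Ly6c1* (0.542 times, adjusted p = 0.011) and *Icam2* (0.628 times, adjusted p = 0.0065). This reference changed by only -0.18 between the groups on the log2 scale, although the median log2 fold change was -0.62. The adjusted p given here therefore do not test the distance from the median ratio, and genes below it passed more easily than genes above it.

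A second reference, chosen after the data were seen, centered each gene on its own mean first and changed by -0.56. With it the same 5 genes were below (10.6%, background 5.98%), and 10 were above (21.3%, background 27.2%). Of those below, the adjusted p were 0.0077 for *Ly6a*, 0.0084 for *Bmx*, 0.021 for *Icam2* and 0.024 for *Ly6c1* (limma). The 10 were the same 4 with *Cd200*, *Emcn*, *Apln*, *Nostrin*, *Ecscr* and *Pltp*, whose ratios lay between 1.04 and 1.42. *Apln* was 1.72 times above the median ratio (log2 departure 0.71, adjusted p = 0.0050 from limma) and *Ecscr* 1.65 times (0.65, adjusted p = 0.0091). *Pecam1*, *Fli1*, *Erg*, *Egfl7*, *Gpr116* and *Robo4* lay near the reference, with log2 departures between -0.12 (*Pecam1*) and -0.01 (*Fli1*) and adjusted p of 0.52 to 0.98. With both references, *Nr2f2*, *Tm4sf1* and *Gpr124* above and *Bmx* and *Ly6a* below were called in each of the 6 fits that left out a library. For *Bmx* the limit of the filter given above applies here too. The arterial gene *Sox17*, at 0.720 times the median ratio, was not called with either reference. The share above the reference was not larger than among all genes, and most of those are no EC genes.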

How the data were processed

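RNA from the samples was depleted of rRNA and tRNA, and stranded total RNA libraries were made and sequenced. Per the submitters' processing notes the tools were TopHat2 (2.0.4), Picard (1.92) and Cufflinks (2.2.1) with the NCBIM37 build. The authors deposited 1 FPKM value per Ensembl gene and library, and it is not stated whether the values were scaled between libraries (median-ratio factors were 0.992 to 1.02). IDs listed more than once (9) had identical rows, of which 1 copy was kept. This left 33460 genes, of which 33116 were matched to the Ensembl annotation of NCBIM37. cDNA fragment counts were recovered only for single-transcript genes (15 of the 47).

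log2(FPKM + 1) values were fitted with limma (3.58.1, R 4.3.3) with an intensity trend over 14801 genes, two-sided, with Benjamini-Hochberg adjustment over all of them. Means are over 3 libraries a group, and ratios and plots were computed with Python (3.11.15). The main fit and both departure fits were also run on simulated data, and the alternatives were not. The labels number each group 1 to 3, but no source states which numbers share a brain, so libraries were not paired. Deviations of equal numbers correlated at 0.0203 to 0.0818. p-values measure the spread between these libraries only. cDNA fragment counts carry counting error alone.

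The 47 genes and the marker lists were chosen with earlier results of these data known. Values per library were given for *Pecam1*, genes called at a ratio under 0.5 or above 2, departures, the 5 highest and 5 lowest log2 fold changes and all zonation genes, and for further examples of each role, some of them chosen after their values were seen. Alternatives were another pseudocount, filter, scaling and threshold, no intensity trend, the replicate block and leaving out each library.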

Additional observations from a re-analysis of the deposited data

How the results depend on the processing

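The median ratio of 0.651 moved to 0.667 with median-ratio scaling, 0.631 with quantile normalization, and 0.619 to 0.696 when a library was left out. Without the intensity trend 14 genes instead of 22 were called lower, at an adjusted p under 0.01 there were 7 lower and 2 higher, and a departure of 2 times left 3 genes below. When a library was left out, the counts ranged from 8 to 26 genes lower, 2 to 4 higher, 6 to 15 at a ratio under 0.5, 1 to 2 above 2, 3 to 5 above the common ratio and 5 to 7 below it. With the centered reference, chosen after the data were seen, 10 genes were above (10 with a pseudocount of 0.1; 6 to 10 when a library was left out, with 9 without mural cell library 3) and 5 below (3 to 7). The causes were not tested.

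With the replicate number as a block, 23 genes were lower and 3 higher, *Vwf*, *Plvap* and *Erg* passed (adjusted p = 0.0283, 0.0409 and 0.0424 from limma), and *Ets1*, *Sox18* and *Ramp2* did not (0.0537, 0.0792 and 0.0541). Every library correlated best with its own number, which is a hint from the data and not from the design.

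Direction turned for 4 genes that were called neither lower nor higher (3 of them, *Emcn*, *Pltp* and *Ecscr*, were above the centered reference). When a library was left out, the log2 fold change ranged from -0.0446 to 0.478 for *Emcn*, -0.365 to 0.0997 for *Palmd*, -0.0808 to 0.252 for *Pltp* and -0.0491 to 0.230 for *Ecscr*. *Pltp* was at -0.00088 and *Ecscr* at -0.0261 with quantile normalization, which moved the median of all genes from -0.12 to 0.01. Of 610 single-gene values, 514 kept direction and side of the threshold, 67 lost and 19 gained a call. The depth limits *Gkn3*, *Esm1*, *Plvap* and the *Ly6* genes, which rest on few cDNA fragments in mural cells. It also limits *Bmx*, at 0.505, 0.602 and 2.27 FPKM in mural cells. Since *Bmx* has 3 transcripts, its cDNA fragments were not counted.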

Other observations

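A second list held 54 further genes chosen as endothelial, *Pgf* and *Foxf2* described below among them, and 52 of the list were tested. Of these, 20 were lower (38.5%, against 13.0% of all genes) and 4 higher (7.69%, against 9.34%) in mural cells (limma), with a median ratio of 0.752, and in mural cell libraries 1, 2 and 3 the median was 0.830, 0.733 and 0.661. *Cdh5*, the gene of VE-cadherin, had a ratio of 0.627 (adjusted p = 0.0096) and *Slc2a1*, the glucose transporter of the blood-brain barrier, of 0.652 (adjusted p = 0.015), near *Pecam1*. *Cldn5*, the main tight junction claudin, had an FPKM of 596, 419 and 451 against 647, 628 and 532, with overlap (ratio 0.811, adjusted p = 0.23).

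The arterial genes of this list spread widely. *Sema3g*, an arterial semaphorin, had an FPKM of 6.23, 6.19 and 4.10 in mural cells against 35.5, 40.7 and 31.4 in fragments. Its groups were far apart (ratio 0.154, log2 fold change -2.51, standard error 0.21), whereas *Efnb2* (0.517), *Hey1* (0.575) and the Notch ligand *Dll4* (0.694) lay nearer to the median. *Ephb4*, the venous receptor of ephrin-B2, had a ratio of 1.10 with overlapping groups (adjusted p = 0.44). The inducible adhesion molecule *Icam1*, which microglia also express, had a ratio of 0.178 (adjusted p = 0.0039), and the microglia markers had a median ratio of 0.0862; their part in this value was not tested.

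On the other side, *Pgf*, a growth factor of the VEGF family, had an FPKM of 25.3, 36.9 and 33.1 in mural cells and of 4.26, 3.58 and 3.26 in fragments. All mural cell libraries were above all fragment libraries (ratio 8.58, log2 fold change 2.79, standard error 0.21). The study also lists *Pgf* in its catalogue of brain mural cell-enriched genes. *Angpt2*, an antagonist of the TIE2 receptor, was at 24.3, 35.6 and 27.2 against 11.6, 15.8 and 9.79 (ratio 2.34, adjusted p = 0.010), and *Foxf2*, a factor that brain PC also express, had a ratio of 1.5 (adjusted p = 0.017).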
